A study of Homo sapiens with 8 samples.

Results

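The transcriptional response to lovastatin that 2 human ovarian carcinoma cell lines had in common was measured on Illumina beadchips. The groups were SKOV3 with lovastatin, OVCAR5 with lovastatin, SKOV3 with DMSO and OVCAR5 with DMSO, each of 2 arrays, after 48 h with 10 µM of the drug or with its solvent DMSO in RPMI-1640 medium with serum. All 8 arrays of the study were normalized together, and the 4 lovastatin arrays were set against the 4 DMSO arrays with the line as an additive term. A probe was tested where it carried 1 gene symbol and had a detection p under 0.01 on at least 2 of the 8 arrays, which kept 14851 of 47323 probes and 11218 of 20046 genes, each gene shown by its brightest kept probe. Each line is an established culture from 1 tumour, and there was 1 dose and 1 time, and no group with mevalonate or one of its products added back was analysed here. Whether a group's arrays came from separate cultures is not stated, so p-values measure the spread between these arrays, which may be technical, and the disagreement of the lines.

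Lovastatin inhibits the rate-limiting enzyme of the mevalonate pathway, which supplies cells with cholesterol and with the isoprenoid lipids farnesyl and geranylgeranyl pyrophosphate. When sterols fall, the sensors of the endoplasmic reticulum release the factor SREBP2, which switches on genes of sterol synthesis and uptake. The isoprenoids are attached to small GTPases such as Ras and hold them at membranes. Assembled actin filaments favour the nuclear entry of the co-activators YAP and TAZ and of the SRF partner MRTF. In endothelium, statins are known to raise KLF2 and thrombomodulin.

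Between 15370 and 17231 probes were detected on an array. Across tested genes, which are not independent replicates, arrays of a group correlated at r = 0.988 in SKOV3 with lovastatin and at up to 0.994 elsewhere, and the log2 difference between a group's arrays had an SD of 0.342 in SKOV3 with lovastatin against 0.239 to 0.262 in the other groups. Of 13 carcinoma and Muellerian markers 8 were kept, among them PAX8, a factor of Muellerian epithelium, and the keratins KRT7, KRT8, KRT18 and KRT19, while WT1, MUC16, CDH1, ESR1 and WFDC2 were below the detection filter. The summed signal of the 8 was 14867.3 to 16544.0 in SKOV3 and 3296.8 to 3630.4 in OVCAR5 with lovastatin. With DMSO it was 7115.4 to 7738.8 in SKOV3 and 3077.6 to 3270.9 in OVCAR5. PAX8 was dim in OVCAR5, with log2 signals of 5.67 and 5.80 with DMSO, against 9.50 and 9.55 in SKOV3 with DMSO. Of 8 leukocyte markers 2 were kept (CD14 and LYZ, summed signal 20.3 to 98.0 with lovastatin and 21.3 to 75.7 with DMSO), and of 7 fibroblast markers 4 (113.1 to 124.3 in SKOV3 with lovastatin, 35.6 to 38.7 in OVCAR5 with lovastatin, 125.0 to 141.9 in SKOV3 with DMSO and 30.7 to 39.3 in OVCAR5 with DMSO). None of the kept leukocyte and fibroblast markers was called. PTPRC, the defining leukocyte gene, and all 6 endothelial markers were not among the kept genes.

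Values per array are log2 normalized signals. Changes are lovastatin minus DMSO on the log2 scale ± standard error. The change over both lines is over 4 lovastatin and 4 DMSO arrays, and the change within a line over 2 and 2 arrays. The standard error within a line rests on a variance pooled over all groups of both lines. It is therefore equal in both lines for a given gene and does not show each line's own precision. P-values come from limma with Benjamini-Hochberg adjustment across all 14851 probes, called under 0.05. Where both arrays of a group left a gene undetected, the fold is given as a bound: the bright group's mean over that of the dim group, where each dim array counts at its lowest detected signal or, if that is higher, at the gene's own value.

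Lovastatin changed 4545 probes over both lines, 30.6% of those tested, 2395 upward and 2150 downward. By gene these were 3496 of 11218 (31.2%), 1911 higher (17%) and 1585 lower (14.1%), and 536 rose and 413 fell by at least 2-fold. The median change of all genes was 0.03 and the median standard error 0.154. In 3319 of the 3496 called genes (94.9%) both lovastatin arrays lay on 1 side of both DMSO arrays in each line and in the same direction, which held for 39.8% of all genes tested. The number of called probes dropped to 2685 without SKOV3 DMSO replicate 1 and to 2587 without SKOV3 DMSO replicate 2.

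A change over both lines could rest mainly on 1 of them. Tested within each line, 5548 genes changed in SKOV3 (49.5%) and 2405 in OVCAR5 (21.4%). Genes called over both lines and in each line with 1 sign numbered 1501, which is 13.4% of genes tested, 42.9% of the genes called over both lines, 27.1% of the SKOV3 calls and 62.4% of the OVCAR5 calls. Of these, 896 rose and 605 fell. The count was 745 to 836 when any 1 of the 4 OVCAR5 arrays was left out (745 and 798 without OVCAR5 lovastatin replicates 1 and 2, 815 and 836 without OVCAR5 DMSO replicates 1 and 2). A further 1613 genes were called over both lines and in SKOV3 alone, 261 in OVCAR5 alone and 121 in neither. The 896 higher and 605 lower genes, of 11218 tested, are the background for list members said to move in each line.

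The test of the difference between the lines called 2923 genes (26.1%), and 1188 of the 3496 genes called over both lines were among them (34.0%). Within the 1501 genes that moved in each line, 444 differed between lines, 387 with the larger change in SKOV3 and 57 with the larger change in OVCAR5. The median absolute change of the 1501 was 1.02 in SKOV3 and 0.78 in OVCAR5. Over all 11218 genes the changes in the lines correlated at r = 0.481, and at 0.539 over the 7968 genes detected on all 8 arrays, as a description across genes.

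**Figure D1:**
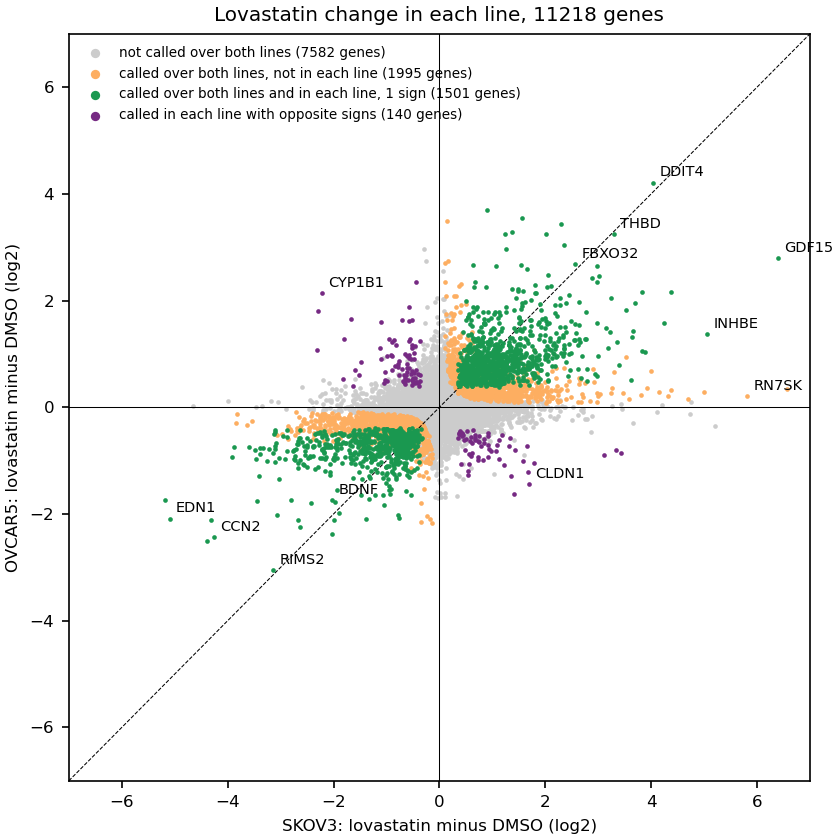
Lovastatin minus DMSO (log2) in SKOV3 (x axis) against OVCAR5 (y axis), 1 point per gene; the dashed line marks equal change and colours give the calls. The 1501 genes called over both lines and in each line with 1 sign lie in the lower left and upper right, DDIT4, THBD, FBXO32 and RIMS2 close to the dashed line and GDF15, INHBE and RN7SK far to its right, and the 140 genes called with opposite signs lie in the upper left and lower right.

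The first genes described were chosen by their test statistics. In the additive model these shrink where the lines disagree, so the choice itself favoured genes with like changes in both lines, and their differences between lines are given as a description. DDIT4, an inhibitor of the growth kinase complex mTORC1, had signals of 13.40 and 13.35 in SKOV3 with lovastatin and 10.68 and 10.55 in OVCAR5 with lovastatin, against 9.31 and 9.37 in SKOV3 with DMSO and 6.45 and 6.36 in OVCAR5 with DMSO. The lovastatin arrays lay about 4 log2 units above the DMSO arrays of their line and the groups did not overlap. DDIT4 rose by 4.13 ± 0.11 (adjusted p = 8.2e-07), by 4.04 ± 0.12 in SKOV3 and 4.21 ± 0.12 in OVCAR5.

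THBD, the thrombin receptor thrombomodulin, had 7.86 and 7.87 in SKOV3 with lovastatin and 9.96 on both OVCAR5 arrays with lovastatin, against 4.55 and 4.58, undetected, in SKOV3 with DMSO and 6.72 and 6.71 in OVCAR5 with DMSO. It was at least 7.13-fold higher over both lines (adjusted p = 1.5e-06). FBXO32, a ubiquitin ligase subunit best known from muscle atrophy, had 9.51 and 9.67 in SKOV3 and 11.78 and 11.65 in OVCAR5 with lovastatin, against 7.05 and 7.01 in SKOV3 and 9.10 and 8.96 in OVCAR5 with DMSO. Its change was 2.62 ± 0.11 (adjusted p = 1.2e-05), and no lovastatin array came within 2 log2 units of a DMSO array of its line.

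SPP1, the secreted glycoprotein osteopontin, had 9.58 and 9.33 in SKOV3 and 7.20 and 7.53 in OVCAR5 with lovastatin, against 6.49 and 6.46 in SKOV3 and 4.81 and 4.61, undetected, in OVCAR5 with DMSO. It was at least 5.28-fold higher (adjusted p = 3.0e-05). ADGRG1, an adhesion G protein-coupled receptor, had 12.31 and 12.29 in SKOV3 and 11.32 and 11.36 in OVCAR5 with lovastatin, against 10.04 and 9.99 in SKOV3 and 9.33 and 9.26 in OVCAR5 with DMSO, a rise of 2.17 ± 0.11 (adjusted p = 3.0e-05). THBD was at least 5.38-fold higher in SKOV3 and SPP1 at least 3.53-fold higher in OVCAR5, so how far their changes differ between the lines was not measured.

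Of the genes chosen the same way that fell, RIMS2, a scaffold of synaptic vesicle release, had 5.82 and 5.81 in SKOV3 with lovastatin and 5.02 and 4.84, undetected, in OVCAR5 with lovastatin. Its DMSO values were 8.93 and 8.98 in SKOV3 and 8.10 and 7.87 in OVCAR5. RIMS2 thus fell at least 7.07-fold (adjusted p = 4.6e-06). It changed by -3.14 ± 0.13 in SKOV3 and was at least 5.69-fold lower in OVCAR5. VSTM1, an immunoglobulin-type receptor of leukocytes, had 4.66 and 4.74, undetected, in SKOV3 and 7.61 and 7.62 in OVCAR5 with lovastatin, against 7.21 and 7.45 in SKOV3 and 9.92 and 9.80 in OVCAR5 with DMSO, and was at least 4.26-fold lower (adjusted p = 4.1e-05).

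BDNF, the neurotrophic growth factor, started from like levels in the lines. It had 6.99 and 7.10 in SKOV3 and 7.33 and 7.14 in OVCAR5 with lovastatin, against 9.02 and 9.12 in SKOV3 and 9.01 and 8.95 in OVCAR5 with DMSO. BDNF changed by -1.89 ± 0.12 (adjusted p = 7.8e-05) on its brightest probe and by -0.55 on its other kept probe. SERTAD4 and its antisense transcript SERTAD4-AS1 were at least 2.50-fold and at least 4.05-fold lower (adjusted p = 9.0e-05 each). SERTAD4 was undetected with lovastatin in both lines (4.53 to 4.92, against 6.66 to 6.87 with DMSO), and SERTAD4-AS1 had 5.32 and 5.59 in SKOV3 and 4.62 and 4.85, undetected, in OVCAR5 with lovastatin, against 8.05 and 8.20 in SKOV3 and 6.92 and 6.77 in OVCAR5 with DMSO. Each gene has its own probe, and how far a probe separates the strands was not tested.

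**Figure D2:**
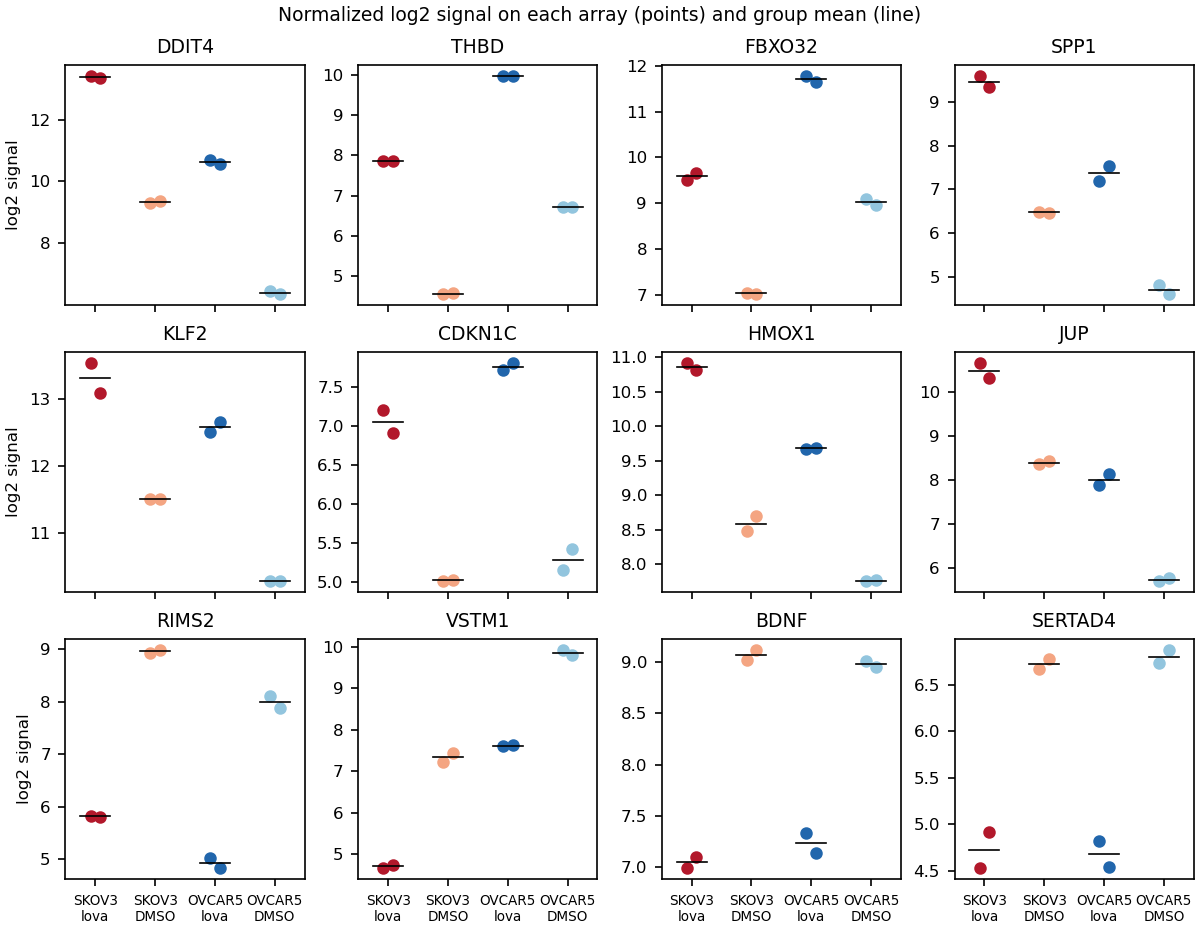
Normalized log2 signal of 12 genes on each of the 8 arrays (points) with the group means (lines), in SKOV3 with lovastatin, SKOV3 with DMSO, OVCAR5 with lovastatin and OVCAR5 with DMSO. In DDIT4, THBD, FBXO32, SPP1, KLF2, CDKN1C, HMOX1 and JUP both lovastatin arrays of a line lie above both of its DMSO arrays, and in RIMS2, VSTM1, BDNF and SERTAD4 they lie below them.

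The largest changes over both lines were named by size. GDF15, a secreted stress cytokine of the TGF-beta family, reached 11.12 and 11.03 in SKOV3 and 7.67 and 7.64 in OVCAR5 with lovastatin, against 4.59 and 4.76 in SKOV3 and 4.89 and 4.85 in OVCAR5 with DMSO, all undetected. That is at least 14.7-fold over both lines (adjusted p = 0.0019), at least 49.8-fold in SKOV3 and at least 4.33-fold in OVCAR5. INHBE, an inhibin subunit, likewise went undetected with DMSO and was at least 5.99-fold higher over both lines (adjusted p = 0.0081), at least 25.1-fold in SKOV3 and at least 1.43-fold in OVCAR5. TSC22D3, the glucocorticoid-induced leucine zipper, rose by 3.0 ± 0.31 (adjusted p = 6.3e-04), with 3.82 ± 0.15 in SKOV3 and 2.17 ± 0.15 in OVCAR5, and by 1.68 to 3.28 over its 3 kept probes. MMP1, a collagenase, was at least 6.23-fold higher over both lines (adjusted p = 0.0014).

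AKR1C2, a steroid-metabolising aldo-keto reductase, rose by 2.87 ± 0.22 (adjusted p = 1.8e-04) and more in OVCAR5 (3.44 ± 0.14) than in SKOV3 (2.30 ± 0.14). Near-identical AKR1C genes leave it uncertain which of them the probe read. RN7SK, a nuclear RNA that holds back the elongation factor P-TEFb, had 12.90 and 13.00 in SKOV3 and 7.87 and 8.12 in OVCAR5 with lovastatin, against 6.90 and 7.37 in SKOV3 and 7.80 and 7.78 in OVCAR5 with DMSO. Its value over both lines was 3.01 ± 0.97 (adjusted p = 0.045), with 0.20 ± 0.18 in OVCAR5 (adjusted p = 0.46), and the call over both lines was lost without any 1 of the 4 SKOV3 arrays (adjusted p up to 0.131).

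At the lower end, EDN1, the vasoconstrictor endothelin-1, had 6.52 and 6.36 in SKOV3 and 4.65 and 4.35, undetected, in OVCAR5 with lovastatin, against 11.49 and 11.56 in SKOV3 and 6.88 and 6.29 in OVCAR5 with DMSO. It was at least 8.58-fold lower (adjusted p = 0.0027). THBS1, the matrix glycoprotein thrombospondin-1, changed by -3.46 ± 0.60 (adjusted p = 0.0049), by -5.19 ± 0.19 in SKOV3 and -1.74 ± 0.19 in OVCAR5. PLAC8, a small cysteine-rich protein, was at least 4.39-fold lower over both lines (adjusted p = 2.2e-04). CDC25A, the phosphatase that opens the way into S phase, was at least 5.14-fold lower (adjusted p = 0.0012) on its brightest probe, and its other kept probe changed by -1.11.

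Some of the sterol genes rose. Of 8 tested mevalonate pathway enzymes 3 rose (37.5%, against 17% of all genes), 1 of them in each line, and 0 fell. The median was 0.61, against 0.03 for all genes, with 0.84 in SKOV3 and 0.11 in OVCAR5. HMGCS1, the synthase at the head of the pathway, had 11.99 on both SKOV3 arrays and 9.58 and 9.45 in OVCAR5 with lovastatin, against 10.57 and 10.44 in SKOV3 and 9.40 and 9.29 in OVCAR5 with DMSO. Its change was 0.83 ± 0.25 (adjusted p = 0.035), with 1.48 ± 0.12 in SKOV3 and 0.17 ± 0.12 in OVCAR5 (adjusted p = 0.38 in OVCAR5), and the lines differed by 1.31 ± 0.17 (adjusted p = 0.0013). IDI1, which isomerises the first isoprenoid, rose by 0.75 ± 0.18 (adjusted p = 0.018), with 0.43 ± 0.20 in OVCAR5 that was not called (adjusted p = 0.16).

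GGPS1, the synthase of geranylgeranyl pyrophosphate, was the mevalonate gene that rose in each line. It had 10.34 and 9.97 in SKOV3 and 9.73 and 9.74 in OVCAR5 with lovastatin, against 9.67 and 9.52 in SKOV3 and 8.99 and 9.01 in OVCAR5 with DMSO, a change of 0.65 ± 0.12 (adjusted p = 0.0068). MVD, the decarboxylase, had a value of 0.68 ± 0.31 over both lines (adjusted p = 0.12). The count of 3 became 1 without SKOV3 DMSO replicate 1 or 2: HMGCS1 lost its call without any 1 SKOV3 array and IDI1 without either SKOV3 DMSO array, and MVD gained one without OVCAR5 DMSO replicate 2.

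Of 10 enzymes from squalene to cholesterol 3 rose (30%, against 17% of all genes), 1 of them in each line, and 0 fell. The median was 0.39, with 0.93 in SKOV3 and 0.01 in OVCAR5. LSS, lanosterol synthase, rose by 0.93 ± 0.12 (adjusted p = 0.0016), with 1.04 ± 0.14 in SKOV3 and 0.83 ± 0.14 in OVCAR5 on its brightest probe, and its other kept probe gave 0.14. MSMO1, a sterol demethylating oxidase, rose by 1.11 ± 0.27 (adjusted p = 0.018) and SQLE, squalene epoxidase, by 0.73 ± 0.21 (adjusted p = 0.030), with OVCAR5 values of 0.37 ± 0.13 and 0.29 ± 0.19 that were not called. The lowest of the 3 kept probes of MSMO1 gave 0.50. The count was 1 without SKOV3 lovastatin replicate 2 or either SKOV3 DMSO array. MSMO1 lost its call without any 1 SKOV3 array and SQLE without SKOV3 lovastatin replicate 2 or either SKOV3 DMSO array.

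Of 10 tested genes of sterol sensing and uptake, 5 rose (50%, against 17% of all genes) and 1 fell (10%, against 14.1%). The median was 0.42, and 4 of the 5 rose in each line. The counts were the same with any 1 array left out. NPC1, the cholesterol transporter of the lysosome, had 11.44 and 11.01 in SKOV3 and 8.55 and 8.86 in OVCAR5 with lovastatin, against 9.25 and 9.21 in SKOV3 and 7.59 and 7.67 in OVCAR5 with DMSO. It rose by 1.53 ± 0.21 (adjusted p = 0.0018). INSIG1 and INSIG2, anchors that hold SREBP in the endoplasmic reticulum, rose by 1.32 ± 0.19 (adjusted p = 0.0026) and 1.14 ± 0.26 (adjusted p = 0.014). INSIG2 had 1.82 ± 0.16 in SKOV3 and was not called in OVCAR5 (0.45 ± 0.16, adjusted p = 0.082). TMEM97, a sterol-regulated partner of NPC1, fell on its brightest probe by 1.19 ± 0.12 on the log2 scale (adjusted p = 5.7e-04), and its other kept probe had 0.34.

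Among 7 genes that oxysterols switch on through the receptor LXR, 2 rose and 2 fell (28.6% each, against 17% and 14.1% of all genes). The median was -0.52 over both lines, -0.73 in SKOV3 and 0.26 in OVCAR5, so the line medians had opposite signs. MYLIP, a ubiquitin ligase for lipoprotein receptors, changed by -1.40 ± 0.24 (adjusted p = 0.0043), by -0.78 ± 0.12 in SKOV3 and -2.02 ± 0.12 in OVCAR5. LPCAT3, a phospholipid acyltransferase, changed by -0.70 ± 0.15 (adjusted p = 0.010), and SMPDL3A, a sphingomyelinase-like phosphodiesterase, by 0.78 ± 0.18 (adjusted p = 0.013). Neither was called in OVCAR5 (-0.41 ± 0.14 and 0.60 ± 0.22, adjusted p = 0.066 and 0.094). ABCA1, the cholesterol exporter, was not called over both lines (-0.95 ± 0.43, adjusted p = 0.12). It had 5.76 and 5.51, detected on 1 array, in SKOV3 with lovastatin against 7.86 and 7.72 with DMSO, and 8.29 and 8.01 in OVCAR5 with lovastatin against 7.89 and 7.88 with DMSO. The higher count of this list was 1 without SKOV3 lovastatin replicate 2 or any 1 OVCAR5 array. Of 10 fatty acid synthesis enzymes 4 rose (40%, against 17% of all genes) and 0 fell (median 0.01). Without SKOV3 lovastatin replicate 2 or a SKOV3 DMSO array 1 or 2 rose.

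In the Ras and Rap list 3 of 9 genes rose (33.3%, against 17% of all genes), each of the 3 in both lines. Of the 9, 0 fell (median 0.27), and no member differed between lines, against 26.1% of all genes. RRAS rose by 1.10 ± 0.14 (adjusted p = 0.0015), and RALA and RALB, Ras-like GTPases of vesicle exocytosis, by 0.81 ± 0.11 (adjusted p = 0.0020) and 0.50 ± 0.11 (adjusted p = 0.011). Of 10 genes that attach, trim or carry prenyl groups 1 rose and 1 fell (10% each, against 17% and 14.1% of all genes). PDE6D, which carries prenylated proteins between membranes, rose by 0.61 ± 0.14 (adjusted p = 0.014), and PGGT1B, a subunit of the geranylgeranyl transferase, was at least 1.42-fold lower (adjusted p = 0.015) on its brightest probe, undetected in SKOV3 with lovastatin, while its other kept probe had 0.26. In OVCAR5 neither gene was called (adjusted p = 0.092 for PDE6D and 0.065 for PGGT1B). The lower count was 0 without SKOV3 DMSO replicate 2 and 2 without OVCAR5 lovastatin replicate 1.

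Of 9 tested Krueppel-like factors 6 rose (66.7%, against 17% of all genes), 5 of them in each line, and 0 fell (median 1.24). The change differed between lines for 1 of the 9, against 26.1% of all genes. KLF2, the endothelial statin-response factor, had 13.54 and 13.09 in SKOV3 and 12.51 and 12.65 in OVCAR5 with lovastatin, against 11.51 on both SKOV3 arrays and 10.28 and 10.29 in OVCAR5 with DMSO. It rose by 2.05 ± 0.15 (adjusted p = 1.5e-04). KLF9, a glucocorticoid-responsive member, rose by 2.14 ± 0.19 (adjusted p = 3.7e-04), KLF13 by 1.27 ± 0.19 (adjusted p = 0.0025) and KLF6, a regulator of growth arrest, by 1.24 ± 0.11 (adjusted p = 3.6e-04). For these 4 genes the lines differed by at most 0.71 log2 units in size and none of the differences was called. KLF9 was dim in OVCAR5 with DMSO (5.96 and 5.02), detected on 1 array.

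YAP and TAZ are co-activators that bind DNA through TEAD factors. Of 20 tested targets, 9 fell (45.0%, against 14.1% of all genes), 1 rose and 10 were not called, the median was -0.50, and 8 fell in each line. With any 1 array left out 8 or 9 fell. ANKRD1, a nuclear ankyrin-repeat protein, was undetected in SKOV3 with lovastatin (5.14 and 5.32) and had 7.22 and 7.26 in OVCAR5 with lovastatin, against 9.66 and 9.57 in SKOV3 and 9.70 and 9.78 in OVCAR5 with DMSO. It was at least 10.3-fold lower over both lines (adjusted p = 5.4e-04).

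CCN2 and CCN1, secreted matricellular proteins, are the targets most used to read YAP activity. CCN2 had 8.61 and 8.66 in SKOV3 and 9.99 and 9.95 in OVCAR5 with lovastatin, against 12.91 and 12.89 in SKOV3 and 12.38 and 12.44 in OVCAR5 with DMSO, a change of -3.35 ± 0.33 (adjusted p = 5.3e-04). CCN1 changed by -3.22 ± 0.40 (adjusted p = 0.0014). The SKOV3 change exceeded the OVCAR5 change in size by 1.83 log2 units for CCN2 and 2.21 for CCN1, and both differences were called. AJUBA, a LIM protein that binds the LATS kinases, changed by -1.31 ± 0.16 (adjusted p = 0.0012). NT5E, the ecto-nucleotidase CD73, singled out after its value was seen, rose by 0.78 ± 0.21 (adjusted p = 0.025), a call lost without any 1 SKOV3 array. It was not called in OVCAR5 (0.27 ± 0.15, adjusted p = 0.25).

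The promoters of ANKRD1 and CCN2 are shown because these genes were among the 10 that fell most and hold the TEAD letters more than once. The sequences are RefSeq's 250 bases before and 50 after the start of the gene on GRCh38.p14, both on the minus strand, at chr10:90921038-90921337 for ANKRD1 and chr6:131951323-131951622 for CCN2. Capitals mark the TEAD motif GGAATG, searched on both strands.
ANKRD1: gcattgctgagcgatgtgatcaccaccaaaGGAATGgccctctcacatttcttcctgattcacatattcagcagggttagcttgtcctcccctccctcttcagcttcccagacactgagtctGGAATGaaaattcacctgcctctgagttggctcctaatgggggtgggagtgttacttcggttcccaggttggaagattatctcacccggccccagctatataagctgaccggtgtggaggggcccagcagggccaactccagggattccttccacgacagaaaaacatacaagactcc
CCN2: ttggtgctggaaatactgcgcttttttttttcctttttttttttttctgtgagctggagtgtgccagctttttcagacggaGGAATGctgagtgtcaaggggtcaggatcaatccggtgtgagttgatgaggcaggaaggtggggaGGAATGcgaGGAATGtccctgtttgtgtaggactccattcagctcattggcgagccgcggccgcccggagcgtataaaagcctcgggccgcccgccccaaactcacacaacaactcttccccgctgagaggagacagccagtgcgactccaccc
ANKRD1 held 2 matches and CCN2 3. Of the 15 tested YAP and TAZ targets with a promoter in the RefSeq table, 7 held the motif (46.7%), against 14.0% of all 35116 promoters. A match is a string of letters and not a measured binding site.

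Of 15 tested actin genes that SRF controls, 5 fell (33.3%, against 14.1% of all genes) and 1 rose (6.7%, against 17%), each of them in both lines. The median was -0.06. TAGLN, the actin-bundling protein transgelin, changed by -2.06 ± 0.38 (adjusted p = 0.0062), by -3.10 ± 0.20 in SKOV3 and -1.02 ± 0.20 in OVCAR5. The calponins CNN3 and CNN2 and the tropomyosin TPM1, which line actin filaments, fell by 1.03 ± 0.11, 0.95 ± 0.11 and 0.89 ± 0.11 on the log2 scale (adjusted p = 7.3e-04, 9.6e-04 and 0.0014), with no called difference between lines. TAGLN2, a relative of transgelin singled out after its value was seen, rose by 0.61 ± 0.12 (adjusted p = 0.0091), and a second gene was called higher without OVCAR5 lovastatin replicate 1.

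Inhibitors of cyclin-dependent kinases rose. Of 6 listed, 4 were tested (CDKN1A, CDKN1C, CDKN2D and CDKN1B). All 4 were higher (100%, against 17% of all genes), 3 of them in each line. The median was 1.61, or 1.44 with the undetected group of CDKN1C at its bound. CDKN1C passed the detection filter only through its lovastatin arrays, so its place among the 4 is not independent of its rise. CDKN1A, which encodes p21, had 12.01 and 12.30 in SKOV3 and 9.64 and 9.60 in OVCAR5 with lovastatin, against 7.78 on both SKOV3 arrays and 7.58 and 7.36 in OVCAR5 with DMSO. It rose by 3.27 ± 0.40 (adjusted p = 0.0012), and more in SKOV3 by 2.23 ± 0.20 (adjusted p = 2.7e-04).

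CDKN1C, which encodes p57, was undetected with DMSO in both lines and at least 3.79-fold higher over both lines (adjusted p = 8.0e-05), at least 3.08-fold in SKOV3 and at least 4.67-fold in OVCAR5. CDKN2D, the INK4-type inhibitor p19, rose by 0.95 ± 0.16 (adjusted p = 0.0046). CDKN1B, which encodes p27, rose by 0.52 ± 0.13 (adjusted p = 0.021), with 0.29 ± 0.13 in OVCAR5 (adjusted p = 0.15), and lost its call without any 1 SKOV3 array.

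Most genes of S phase and DNA replication fell. Of 31 tested, 28 fell and 0 rose (90.3%, against 14.1% of all genes), 25 of them in each line, with a median of -2.26 in SKOV3 and -0.75 in OVCAR5. The change differed between lines for 27 of the 31, against 26.1% of all genes. With any 1 array left out 24 to 29 fell. MCM10, a replication initiation factor, had 6.0 and 5.95 in SKOV3 and 8.11 and 8.23 in OVCAR5 with lovastatin, against 9.51 and 9.26 in SKOV3 and 9.49 and 9.41 in OVCAR5 with DMSO. It changed by -2.34 ± 0.38 (adjusted p = 0.0036). In bulk RNA, fewer cycling cells and less RNA per cell cannot be told apart.

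E2F2, a factor that drives S-phase entry, was undetected in SKOV3 with lovastatin and at least 4.86-fold lower over both lines (adjusted p = 0.011). CDT1, which licenses replication origins, changed by -2.19 ± 0.34 (adjusted p = 0.0030). RRM2, a subunit of ribonucleotide reductase, changed by -2.31 ± 0.55 (adjusted p = 0.015), detected on 1 of 2 SKOV3 lovastatin arrays, and lost its call without SKOV3 lovastatin replicate 1 or 2.

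Of 36 tested genes of G2 and mitosis, 33 fell (91.7%, against 14.1% of all genes) and 1 rose (median -1.35), but 10 fell in each line. The change differed between lines for 35 of the 36, against 26.1% of all genes, with a median of -2.35 in SKOV3 and -0.39 in OVCAR5. The count of 33 became 8 or 9 without any 1 of the SKOV3 arrays: 8 without SKOV3 lovastatin replicate 1 or SKOV3 DMSO replicate 2, and 9 without SKOV3 lovastatin replicate 2 or SKOV3 DMSO replicate 1. KIF20A, a kinesin of cytokinesis, shows the split. It had 7.07 and 7.12 in SKOV3 with lovastatin against 10.63 and 10.62 with DMSO, and 10.63 on both OVCAR5 arrays with lovastatin against 10.92 and 10.87 with DMSO. Its value over both lines was -1.90 ± 0.57 (adjusted p = 0.035), a call lost without any 1 SKOV3 array (adjusted p up to 0.105).

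CDCA3, a trigger of mitotic entry, and CDCA8, a subunit of the chromosomal passenger complex, changed by -1.88 ± 0.43 (adjusted p = 0.013) and -1.71 ± 0.29 (adjusted p = 0.0044). MKI67, the proliferation marker Ki-67, fell in each line. It had 4.79 and 4.77, undetected, in SKOV3 and 5.78 and 5.61 in OVCAR5 with lovastatin, against 6.26 and 6.58 in SKOV3 and 6.85 and 7.21 in OVCAR5 with DMSO, and was at least 2.26-fold lower (adjusted p = 4.7e-04). CDC25B, a phosphatase that activates CDK1 at mitotic entry, was the member that rose, singled out after its value was seen (0.49 ± 0.13, adjusted p = 0.027). It was not called in SKOV3 (0.22 ± 0.12, adjusted p = 0.15). Its call was lost without SKOV3 DMSO replicate 2 or any 1 OVCAR5 array, and with median scaling of the arrays (adjusted p = 0.089).

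The promoters of E2F2 and MKI67 stand for the 2 cell cycle lists and hold the motif of their list. They are RefSeq's 300 bases on GRCh38.p14, on the minus strand, at chr1:23531184-23531483 for E2F2 and chr10:128126374-128126673 for MKI67. Capitals mark the E2F motif TTTNGCGC in E2F2, where 2 matches on opposite strands overlap, and the CHR motif TTTGAA, the cell cycle homology region, in MKI67.
E2F2: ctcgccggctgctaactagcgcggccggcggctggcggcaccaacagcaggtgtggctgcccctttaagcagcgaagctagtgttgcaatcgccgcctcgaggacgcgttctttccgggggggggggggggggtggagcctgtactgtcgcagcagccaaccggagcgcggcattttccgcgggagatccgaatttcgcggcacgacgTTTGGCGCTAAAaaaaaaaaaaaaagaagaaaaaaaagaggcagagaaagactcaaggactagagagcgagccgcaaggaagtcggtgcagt
MKI67: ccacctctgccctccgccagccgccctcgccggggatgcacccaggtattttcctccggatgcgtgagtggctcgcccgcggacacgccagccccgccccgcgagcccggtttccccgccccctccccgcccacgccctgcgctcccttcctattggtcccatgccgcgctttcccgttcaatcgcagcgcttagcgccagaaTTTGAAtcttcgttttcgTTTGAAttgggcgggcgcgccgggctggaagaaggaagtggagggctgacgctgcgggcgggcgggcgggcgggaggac
The E2F letters stood in 12 of 28 promoters of the S phase list (42.9%) and 2 of 30 of the G2 and mitosis list (6.7%), against 1.8% of all promoters. The CHR letters stood in 19 of 30 promoters of the G2 and mitosis list (63.3%, against 15.2% of all), and CCAAT, searched on both strands, in 24 of 30 (80.0%, against 34.6%). MKI67 held CCAAT 2 times on the opposite strand, beginning at -98 and -24 from the start, the second sharing 1 base with the CHR match that begins at -29. In the other lists searched, the E-box CACGTG stood in 8 of 18 ribosome biogenesis promoters (44.4%, against 7.3% of all). The ATF4 letters TGATGNAA stood in 4 of 20 promoters of the integrated stress response (20.0%, against 3.6%), and the SREBP letters TCACNCCAC in 0 of 7, 0 of 9 and 1 of 10 promoters of the mevalonate, squalene and sterol sensing lists (against 1.1%). As for TEAD, list counts take 1 promoter per tested gene and the background every promoter, and the shares describe the lists and not the lovastatin response.

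**Figure D3:**
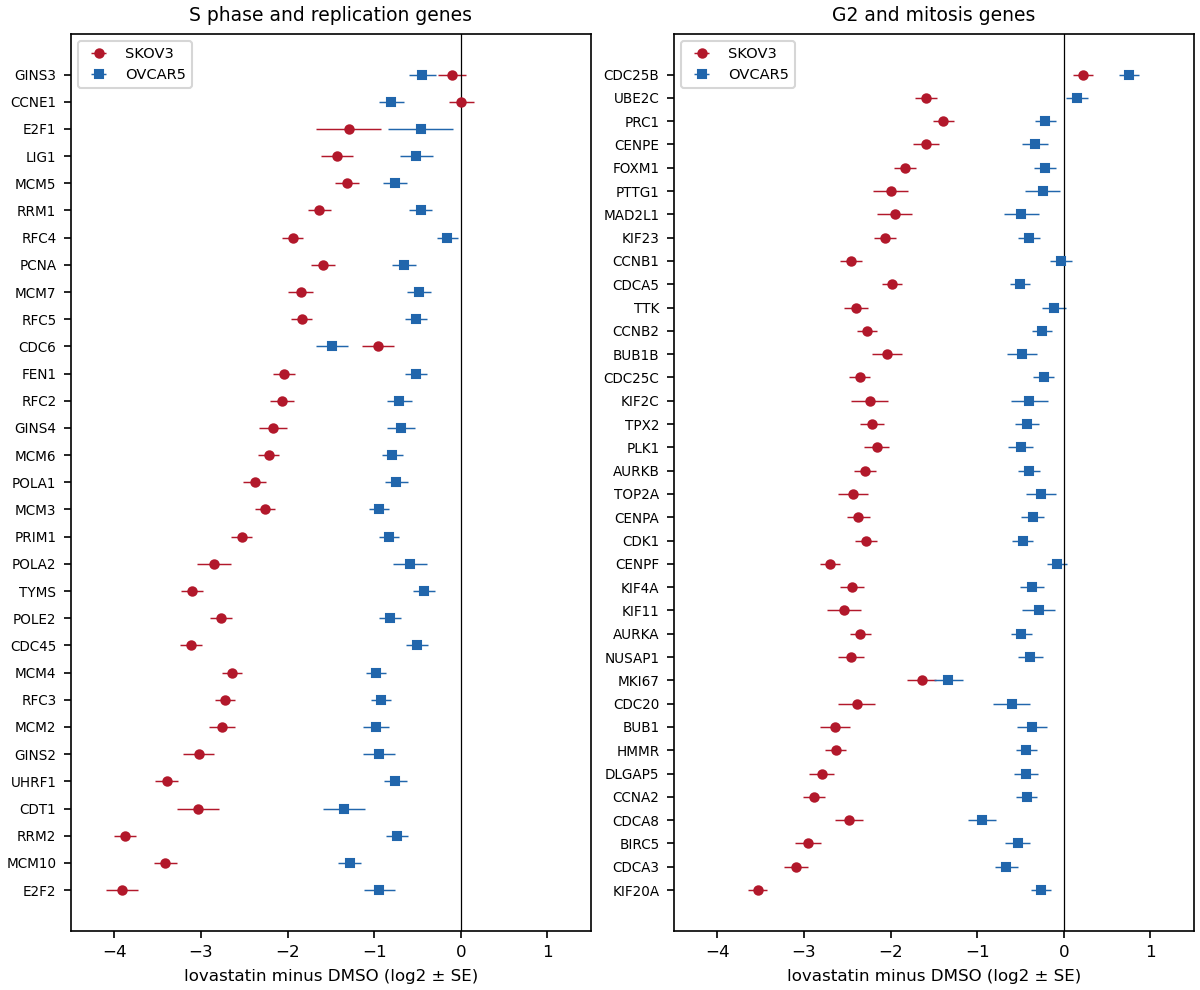
Lovastatin minus DMSO (log2, bars ± standard error) of each tested gene of S phase and replication (left) and of G2 and mitosis (right), in SKOV3 (circles) and OVCAR5 (squares), sorted by the change over both lines. SKOV3 lies left of OVCAR5 for 28 of 31 genes of S phase and for 36 of 36 of G2 and mitosis, and MKI67 is the gene of the right panel whose OVCAR5 point lies beyond -1.

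Most ribosome biogenesis genes fell. Of 24 tested, with MYC, 22 fell (91.7%, against 14.1% of all genes), 12 of them in each line, and 0 rose (median -0.71). The change differed between lines for 8 of the 24, against 26.1% of all genes. The count of 22 was 14 without SKOV3 DMSO replicate 1. RRS1, which assembles the large ribosomal subunit, had 7.44 and 7.64 in SKOV3 and 9.48 and 9.41 in OVCAR5 with lovastatin, against 9.70 and 9.82 in SKOV3 and 10.39 and 10.42 in OVCAR5 with DMSO. It changed by -1.59 ± 0.24 (adjusted p = 0.0028). The nucleolar factors BYSL and NOP16 changed by -1.28 ± 0.24 (adjusted p = 0.0068) and -1.14 ± 0.15 (adjusted p = 0.0018).

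MYC itself, the factor that drives ribosome production, was not called over both lines (-1.46 ± 0.50, adjusted p = 0.056). It had 8.28 and 8.53 in SKOV3 with lovastatin against 11.20 and 11.39 with DMSO, and 11.91 and 11.80 in OVCAR5 with lovastatin against 11.92 and 11.85 with DMSO. The lines differed by -2.86 ± 0.20 (adjusted p = 1.0e-04), and MYC was called over both lines when any 1 OVCAR5 array was left out. Of 27 cytosolic ribosomal protein genes 6 fell (22.2%, against 14.1% of all genes), none in each line, and 0 rose (median -0.10). RPS7 changed by -1.15 ± 0.28 (adjusted p = 0.017), a call lost without SKOV3 lovastatin replicate 2 or either SKOV3 DMSO array. The count of 6 was 0 or 1 without any 1 SKOV3 array and 3 without OVCAR5 lovastatin replicate 2.

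The integrated stress response is the ATF4 programme of cells that restrain translation. Of its 26 tested genes, 16 rose and 0 fell (61.5%, against 17% of all genes), 9 of them in each line. The median was 2.12 in SKOV3 and 0.30 in OVCAR5, and 19 of the 26 differed between lines, against 26.1% of all genes. The count of 16 was 10 without any 1 SKOV3 array. GDF15 and INHBE, undetected with DMSO in both lines, passed the detection filter only through their lovastatin arrays. Beside GDF15, DDIT4 and INHBE, DDIT3, the factor CHOP, had 11.38 and 11.45 in SKOV3 and 8.90 and 9.06 in OVCAR5 with lovastatin, against 6.99 and 7.36 in SKOV3 and 7.39 and 7.41 in OVCAR5 with DMSO. It rose by 2.91 ± 0.47 (adjusted p = 0.0036).

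Of 15 genes of the unfolded protein response of the endoplasmic reticulum 5 rose (33.3%, against 17% of all genes), 3 in each line. Of the 15, 0 fell (median 0.16). Without any 1 SKOV3 array 2 or 3 rose, while 1 fell without SKOV3 lovastatin replicate 2. HSPA5, the chaperone BiP, rose by 1.32 ± 0.26 (adjusted p = 0.0081), with 2.03 ± 0.13 in SKOV3 and 0.62 ± 0.13 in OVCAR5. SYVN1, a ubiquitin ligase of protein degradation at the endoplasmic reticulum, rose by 0.99 ± 0.11 (adjusted p = 0.0011) on its brightest probe, with no called difference between lines. Its other kept probe gave 0.45.

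Of 25 tested autophagy genes 13 rose (52%, against 17% of all genes), 9 of the 13 in each line, and 0 fell (median 0.49). With any 1 array left out 11 to 13 rose, and 1 fell without OVCAR5 DMSO replicate 1. WIPI1, which marks forming autophagosomes, had 9.88 and 9.91 in SKOV3 and 8.52 and 8.47 in OVCAR5 with lovastatin, against 6.69 and 6.80 in SKOV3 and 6.99 and 7.02 in OVCAR5 with DMSO, a rise of 2.32 ± 0.30 (adjusted p = 0.0016). GABARAPL1 and MAP1LC3B, ubiquitin-like proteins of the autophagosome membrane, rose by 1.99 ± 0.24 (adjusted p = 0.0012) and 1.43 ± 0.19 (adjusted p = 0.0017). ULK1, the kinase that starts autophagy, rose by 1.73 ± 0.20 (adjusted p = 0.0012), and OPTN, a receptor for cargo, by 1.98 ± 0.16 (adjusted p = 2.3e-04), OPTN with no called difference between lines.

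Of 18 lysosomal genes 10 rose (55.6%, against 17% of all genes), 5 of them in each line, and 0 fell (median 0.45). CTSD, the protease cathepsin D, had 10.87 and 10.53 in SKOV3 and 10.59 and 10.60 in OVCAR5 with lovastatin, against 8.78 and 8.85 in SKOV3 and 8.99 and 9.0 in OVCAR5 with DMSO. It rose by 1.74 ± 0.12 (adjusted p = 1.3e-04). NEU1, a sialidase, and TPP1, a peptidase, rose by 1.20 ± 0.20 (adjusted p = 0.0040) and 0.94 ± 0.14 (adjusted p = 0.0028). The count was 5 or 6 without any 1 SKOV3 array.

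Targets of NRF2, the factor of the oxidative stress response, had 6 of 13 higher (46.2%, against 17% of all genes) and 0 lower (median 0.30). HMOX1, heme oxygenase, had 10.91 and 10.81 in SKOV3 and 9.67 and 9.68 in OVCAR5 with lovastatin, against 8.48 and 8.70 in SKOV3 and 7.76 and 7.77 in OVCAR5 with DMSO. It rose by 2.09 ± 0.12 (adjusted p = 7.2e-05), with no called difference between lines. GCLC, which limits glutathione synthesis, rose by 1.38 ± 0.16 (adjusted p = 0.0010) on its brightest probe, and its other kept probe gave 0.60. TXNIP, which binds thioredoxin, was not called over both lines (0.99 ± 0.43, adjusted p = 0.11), with 2.20 ± 0.13 in SKOV3 and -0.23 ± 0.13 in OVCAR5.

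Cytokine and NF-kB genes had 12 of 18 higher (66.7%, against 17% of all genes), 7 of them in each line, and 0 lower (median 1.06). Without SKOV3 lovastatin replicate 1 or 2, 7 were higher, and 1 was lower without OVCAR5 lovastatin replicate 2 or OVCAR5 DMSO replicate 1. CXCL8, the neutrophil chemokine interleukin-8, had 13.88 and 13.66 in SKOV3 and 10.75 and 10.69 in OVCAR5 with lovastatin, against 12.10 and 12.13 in SKOV3 and 8.22 and 8.05 in OVCAR5 with DMSO. It rose by 2.12 ± 0.19 (adjusted p = 3.8e-04), and more in OVCAR5 by 0.93 ± 0.19 log2 units (adjusted p = 0.0082). IL1B was at least 4.50-fold higher over both lines (adjusted p = 0.0031), and undetected in SKOV3 with DMSO. IL1A rose by 2.64 ± 0.83 (adjusted p = 0.042), with 0.28 ± 0.28 in OVCAR5 (adjusted p = 0.54), and lost its call without any 1 SKOV3 array. In SKOV3 with DMSO it had 5.44 and 4.56, detected on 1 array.

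Of 21 AP-1 and immediate early genes 12 rose (57.1%, against 17% of all genes) and 1 fell (4.8%, against 14.1%), with a median of 0.64. In each line 4 rose, and 4 to 7 rose without SKOV3 lovastatin replicate 1 or a SKOV3 DMSO array. JUND, an AP-1 subunit, rose by 1.85 ± 0.16 (adjusted p = 3.3e-04), with 1.48 ± 0.13 in SKOV3 and 2.21 ± 0.13 in OVCAR5. FOSB, another subunit singled out after its value was seen, fell in each line, by 1.18 ± 0.15 on the log2 scale over both (adjusted p = 0.0013). In OVCAR5 with lovastatin FOSB had 5.47 and 5.09, detected on 1 array. A second gene was called lower without OVCAR5 lovastatin replicate 2.

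Of 17 integrins and focal adhesion genes 10 rose (58.8%, against 17% of all genes) and 1 fell (5.9%, against 14.1%), with a median of 0.59. In each line 8 rose, and 10 rose with any 1 array left out. ITGA5, the fibronectin receptor subunit, had 10.57 and 10.74 in SKOV3 and 9.94 and 9.74 in OVCAR5 with lovastatin, against 8.84 and 8.96 in SKOV3 and 8.99 and 9.16 in OVCAR5 with DMSO, a rise of 1.26 ± 0.20 (adjusted p = 0.0036). The laminin receptor subunits ITGA6 and ITGB4 rose by 1.30 ± 0.20 (adjusted p = 0.0031) and at least 2.13-fold (adjusted p = 0.012), ITGB4 by at least 2.95-fold in OVCAR5 and by 0.63 ± 0.13 on the log2 scale in SKOV3. The other kept probe of ITGA6 gave 0.62. CAV1, the caveola coat protein, singled out after its value was seen, changed by -0.80 ± 0.25 (adjusted p = 0.041), a call lost without any 1 SKOV3 array. It was not called in OVCAR5 (-0.18 ± 0.18, adjusted p = 0.52).

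Among 16 epithelial adhesion genes 8 rose (50%, against 17% of all genes) and 2 fell (12.5%, against 14.1%). The median was 0.52, and 5 rose in each line. JUP, the junction protein plakoglobin, had 10.66 and 10.33 in SKOV3 and 7.87 and 8.13 in OVCAR5 with lovastatin, against 8.35 and 8.43 in SKOV3 and 5.69 and 5.75 in OVCAR5 with DMSO. It rose by 2.19 ± 0.13 (adjusted p = 7.2e-05), and by as little as 0.68 on another kept probe. CLDN7, a tight junction claudin, was at least 2.74-fold higher (adjusted p = 2.9e-04). PKP2, a desmosome protein, changed by -1.16 ± 0.37 (adjusted p = 0.043), with -2.18 ± 0.15 in OVCAR5 and -0.14 ± 0.15 in SKOV3 (adjusted p = 0.46 in SKOV3). In OVCAR5 with lovastatin PKP2 had 5.56 and 5.20, detected on 1 array. The higher count was 5 without SKOV3 DMSO replicate 2. PKP2 lost its call without SKOV3 lovastatin replicate 1 or any 1 OVCAR5 array, and KRT18 lost its own without SKOV3 DMSO replicate 2.

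Of the 8 kept carcinoma and Muellerian markers 4 rose (50%, against 17% of all genes) and 1 fell (12.5%, against 14.1%). The median was 0.59, and 2 rose without any 1 SKOV3 array. PAX8 rose by 1.46 ± 0.14 (adjusted p = 5.7e-04), and by 0.58 on the lowest of its 3 kept probes. EPCAM, an epithelial adhesion molecule, rose by 0.90 ± 0.17 (adjusted p = 0.0073). KRT18, a keratin of simple epithelia singled out after its value was seen, changed by -0.45 ± 0.11 (adjusted p = 0.015), and by -0.39 with median scaling (adjusted p = 0.053). The other kept probe of KRT18 had -0.11. ERBB2 is amplified in SKOV3, as background. Of ERBB2 and 4 neighbours on the chromosome, 4 rose (80%, against 17% of all genes), 2 in each line, and 0 fell. Without SKOV3 lovastatin replicate 2 or a SKOV3 DMSO array 2 rose. The growth factor receptor ERBB2 itself had 13.27 and 13.11 in SKOV3 and 8.45 and 8.32 in OVCAR5 with lovastatin, against 12.40 and 12.31 in SKOV3 and 7.75 and 7.73 in OVCAR5 with DMSO. ERBB2 rose by 0.74 ± 0.11 (adjusted p = 0.0027) and its neighbour PGAP3, which remodels lipid-anchored proteins, by 0.81 ± 0.12 (adjusted p = 0.0026).

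Hypoxia and glycolysis genes had 6 of 21 higher (28.6%, against 17% of all genes) and 0 lower (median 0.24). Without background correction or with an intensity trend and robust prior 10 were higher. NDRG1, a growth-inhibitory gene of hypoxia and stress, had 13.48 and 13.15 in SKOV3 and 13.23 and 13.16 in OVCAR5 with lovastatin, against 10.22 and 10.38 in SKOV3 and 10.71 and 10.78 in OVCAR5 with DMSO. It rose by 2.73 ± 0.15 (adjusted p = 6.3e-05). ENO2, an enolase isozyme, rose by 1.69 ± 0.12 (adjusted p = 1.2e-04). ANGPTL4, an inhibitor of lipoprotein lipase, was at least 2.50-fold higher (adjusted p = 0.0033) on its brightest probe, and another of its 3 kept probes changed by 0.25. Of 13 p53 targets 3 rose (23.1%, against 17% of all genes), CDKN1A among them, and 0 fell (median 0.29).

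Interferon-stimulated genes were called higher more often than all genes, and lower about as often as all genes. Of 20, 6 rose (30%, against 17% of all genes) and 3 fell (15%, against 14.1%), with a median of 0.35. ISG20, an exonuclease of single-stranded RNA, had 9.22 and 9.65 in SKOV3 and 10.88 and 10.91 in OVCAR5 with lovastatin, against 6.55 and 6.56 in SKOV3 and 8.58 and 8.35 in OVCAR5 with DMSO, a rise of 2.65 ± 0.15 (adjusted p = 6.3e-05). The factors IRF9 and IRF7 rose by 1.66 ± 0.24 (adjusted p = 0.0024) and 1.27 ± 0.14 (adjusted p = 9.0e-04). OAS3, a sensor of double-stranded RNA singled out after its value was seen, fell in each line, by 1.07 ± 0.12 on the log2 scale (adjusted p = 9.5e-04). In OVCAR5 with lovastatin OAS3 had 5.71 and 5.45, detected on 1 array. The lower count was 1 without SKOV3 lovastatin replicate 2, either SKOV3 DMSO array, OVCAR5 lovastatin replicate 1 or OVCAR5 DMSO replicate 2.

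Respiratory chain and proteasome genes were seldom called over both lines. Of 24 respiratory chain subunits 0 rose and 2 fell (8.3%, against 14.1% of all genes), with a median of -0.10. Without any 1 SKOV3 array 0 or 1 fell. Of 25 proteasome subunits 0 rose and 0 fell by limma, against 17% and 14.1% of all genes. The median was -0.18, with 1 higher and 2 lower at an unadjusted p under 0.05. Fitted on the SKOV3 arrays alone, 7 genes of each list fell. The proteasome median was -0.39 in SKOV3 and 0.02 in OVCAR5, with a lower value in SKOV3 for 23 of 25 genes. For the respiratory chain the medians were -0.19 and 0.02, with a lower value in SKOV3 for 21 of 24 genes. Over all genes the SKOV3 value was the lower for 5735 of 11218. A difference between lines was called for 5 proteasome and 3 respiratory chain genes, shares below the 26.1% of all genes. In the proteasome list 1 gene was called lower without OVCAR5 lovastatin replicate 2 or either OVCAR5 DMSO array.

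**Figure D4:**
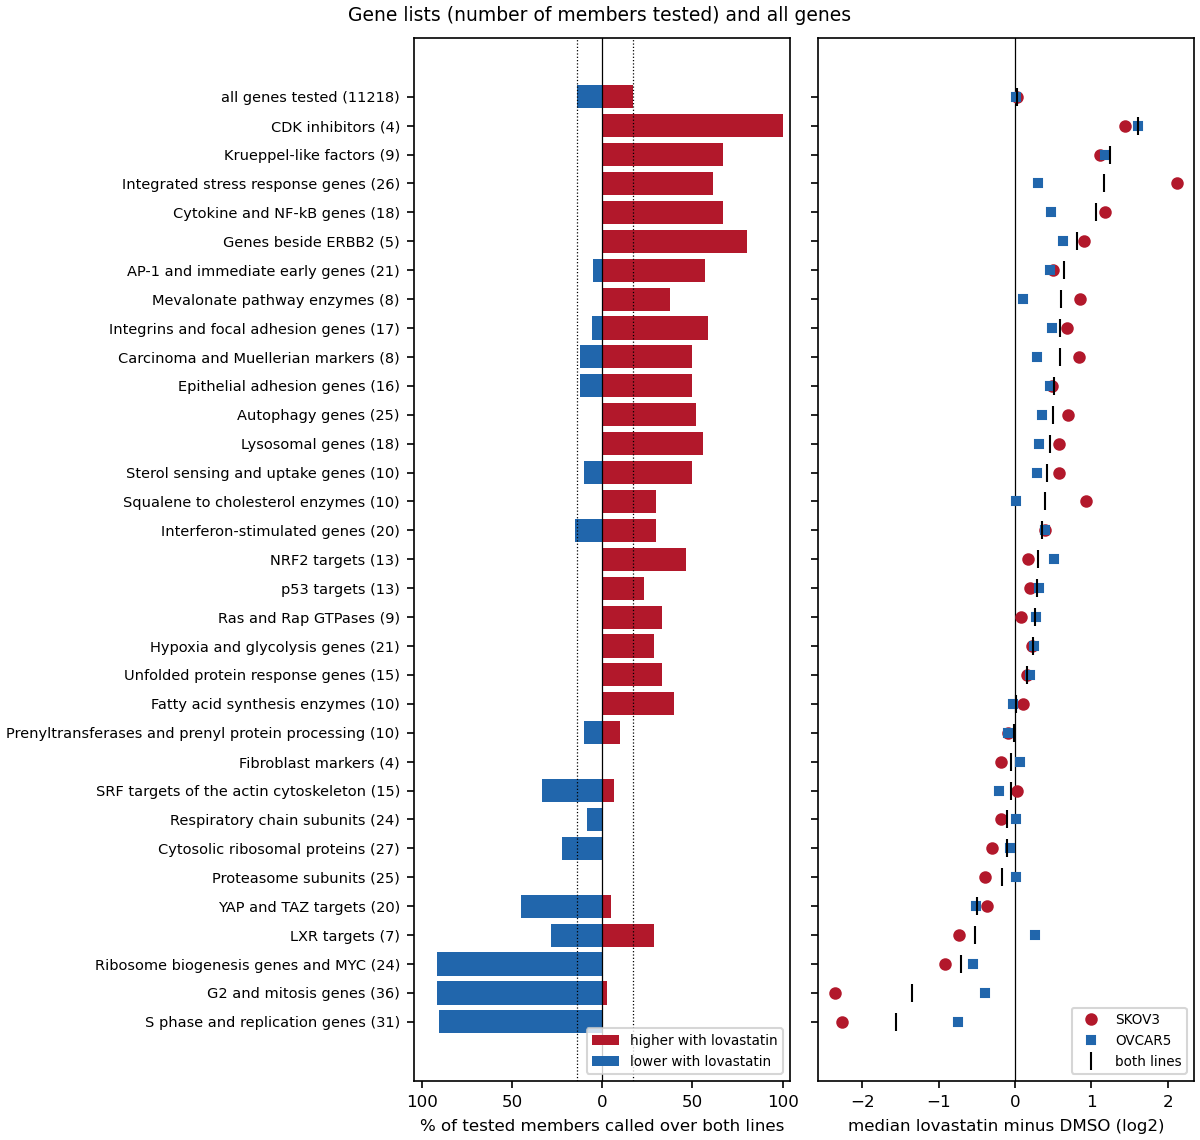
Left, the percent of tested members of each gene list called higher or lower over both lines, with dotted lines at the 17% and 14.1% of all genes; right, the median lovastatin minus DMSO change (log2) in SKOV3 (circles), in OVCAR5 (squares) and over both lines (ticks). S phase, mitosis and ribosome biogenesis lie at the bottom with about 90% of members lower, and SKOV3 and OVCAR5 medians lie far apart for the integrated stress response, S phase and mitosis.

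Some genes moved in opposite directions and so dropped out of the common response. Of 11218 genes tested, 140 were called in each line with opposite signs, 62 higher in SKOV3 and lower in OVCAR5 and 78 the reverse. None of them was called over both lines, which the additive model nearly fixes in advance. Opposite changes cancel in its value and widen its residual. CLDN1, a tight junction claudin, had 10.80 and 10.85 in SKOV3 with lovastatin against 9.18 and 9.09 with DMSO, and 6.11 and 5.73 in OVCAR5 with lovastatin against 7.26 and 7.47 with DMSO, with a value of 0.12 ± 0.55 over both lines. TGM2 (tissue transglutaminase), SIK1 (a salt-inducible kinase) and RRP9 (a nucleolar factor) had the same pattern, with SKOV3 values of 1.35 to 1.69 and OVCAR5 values of -1.62 to -1.21 over these 4 genes. In OVCAR5 with lovastatin SIK1 had 5.39 and 5.58, detected on 1 array.

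CYP1B1, an oxidase of steroids and aromatic compounds, ran the other way, at 6.24 and 5.59 in SKOV3 with lovastatin against 8.10 and 8.16 with DMSO, and 9.91 and 9.86 in OVCAR5 with lovastatin against 7.65 and 7.84 with DMSO. SHISA2, an inhibitor of receptor maturation, was at least 3.58-fold lower in SKOV3 (adjusted p = 3.5e-06) and rose by 1.80 ± 0.12 in OVCAR5 (adjusted p = 5.6e-05). RRAD, a Ras-related GTPase, and LHX1, a developmental homeobox factor, had SKOV3 values of -1.67 ± 0.34 and -1.80 ± 0.20 and OVCAR5 values of 1.65 ± 0.34 and 1.29 ± 0.20. The signals of RRAD with DMSO were 4.66 and 5.88 in OVCAR5, detected on 1 array, and 8.71 and 8.85 in SKOV3.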

How the data were processed

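Total RNA of SKOV3 and OVCAR5, biotin-labelled per the labels' protocols, was hybridised to beadchips. The authors deposited the average intensity per probe and array, not normalized per the file headers, with a detection p-value; a second deposited table holds their log2 values, made with limma per the submitters' processing notes and used as an alternative. The sources used here name no scanner software or scan batch.

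Intensities of all 8 arrays were background-corrected, quantile-normalized and log2-transformed with neqc of limma 3.58.1 (R 4.3.3, offset 16, background from the detection p-values). Probes took genes from the platform annotation: 30113 had 1 symbol, 8 had several and 17202 were unnamed here; 30074 of the first matched a current RefSeq record. Several kept probes stood for 2950 genes; 1006 of these were called, 1 of them with a probe called the opposite way. Limma's moderated test (lmFit, eBayes) was fitted with line and treatment as additive terms, and to 4 group means for each line and their difference. Called means an adjusted p under 0.05. The adjustment covers all 14851 kept probes. The additive residual holds the disagreement of the lines. The number of arrays limits the precision. The steps were tested on simulated data.

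The groups follow the labels. Members, the 35 gene lists and the tests were chosen with earlier results of these data known. Genes were named by a rule: the 10 highest and 10 lowest changes, and the 5 largest test statistics each way, among 3021 called genes whose lovastatin arrays lay beyond the DMSO arrays the same way in each line and that were detected in a group of each line; of the genes opposite between lines, 4 each way; up to 4 per list by absolute change; and, always, DDIT4, TXNIP, MAP1LC3B, MKI67, CDKN1A, CCN2, CCN1, KLF6, KLF2, ABCA1, SQLE, INSIG1 and HMGCS1. Not all eligible genes are described, and 1 of the gene lists with its members is not reported here. Other genes are said to be singled out after their values were seen. Promoters come from RefSeq (GRCh38.p14), the first per gene for list counts. Python 3.11.15 and matplotlib 3.10.9 drew the plots. Alternatives covered background, normalization, the deposited log2 table, detection filter, probe choice, variance prior, model, replicate block and arrays left out.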

Additional observations from a re-analysis of the deposited data

Results flagged for a closer look

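The lovastatin change of 66 of the 118 genes named above or tested with them differed between the lines by limma's test of the difference (adjusted p between 1.55e-05 and 0.0462 over all kept probes), and these are given as SKOV3 minus OVCAR5 on the log2 scale. Of all genes 26.1% were called by that test. Where a group was undetected, as for GDF15, INHBE, MMP1, EDN1, ANKRD1, CDC25A, PLAC8, E2F2, IL1B, ITGB4, ANGPTL4 and SHISA2, the value is fitted, from a signal not above background, and neither a measured difference nor a bound. With 2 arrays per group no array was screened for standing apart.

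Among the largest changes, the difference was 3.61 for GDF15, 3.69 for INHBE, 5.61 for RN7SK, 2.66 for DDIT3, 2.23 for CDKN1A, 1.65 for TSC22D3, 1.74 for MMP1 and -1.13 for AKR1C2. It was -3.01 for EDN1, -3.45 for THBS1, -1.89 for ANKRD1, -1.83 for CCN2, -2.21 for CCN1, -1.69 for CDC25A, -1.06 for PLAC8 and -2.97 for E2F2. Sterol genes differed by 1.31 for HMGCS1, 1.60 for MVD, 1.48 for MSMO1, 0.90 for SQLE, 0.95 for INSIG1, 1.37 for INSIG2, 0.92 for NPC1, 1.24 for MYLIP and -2.42 for ABCA1.

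Cytoskeletal and YAP genes differed by -0.65 for AJUBA, 1.03 for NT5E and -2.08 for TAGLN. Cell cycle and growth genes differed by -2.13 for MCM10, -3.14 for RRM2, -1.69 for CDT1, -3.27 for KIF20A, -2.43 for CDCA3, -1.54 for CDCA8, -0.53 for CDC25B, -2.86 for MYC, -1.26 for RRS1, -1.29 for BYSL and -1.38 for RPS7. Stress and degradation genes differed by 1.41 for HSPA5, 2.43 for TXNIP, 1.66 for WIPI1, 1.20 for GABARAPL1, 1.0 for ULK1, 0.89 for MAP1LC3B and 0.93 for NEU1.

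In inflammatory, adhesion and other genes it was 4.72 for IL1A, 2.23 for IL1B, -0.93 for CXCL8, -0.73 for JUND, 1.29 for IRF9, 2.03 for PKP2, -2.03 for ITGB4, 0.99 for ITGA5, 0.92 for ITGA6, -1.24 for CAV1, 0.81 for EPCAM and 1.17 for ANGPTL4. Genes that moved in opposite directions had 3.13 for CLDN1, 3.03 for TGM2, 2.65 for SIK1, 2.89 for RRP9, -4.36 for CYP1B1, -4.09 for SHISA2, -3.32 for RRAD and -3.09 for LHX1.

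Probes without a gene name were outside the main measurement. Of 4011 such probes that passed the same detection filter, 655 were called over both lines when fitted by themselves with limma (16.3%), 252 higher and 403 lower.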

How the results depend on the processing

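The 4545 probes called over both lines were between 3793 and 4802 under another background correction, normalization, value table, detection filter or variance prior, and 3557 of 11218 with the brightest probe of each gene alone. The detection filter also changed the number tested, and so the share called. Against 4545 of 14851, 3793 of 30113 probes were called with no filter on dim probes and 3852 of 10136 with detection on all 8 arrays. The count was 7394 with the average of the line contrasts in place of additive terms, a model whose residual leaves out the disagreement of the lines, and 70 when a change of at least 2-fold was itself tested, an alternative chosen after seeing the data. Leaving out 1 array gave 2587 to 4155 probes over both lines, 745 to 1730 genes called also in each line with 1 sign (1501 with all arrays) and 2495 to 4182 probes whose change differed between lines (3758 with all arrays). SKOV3 alone had 6412 called probes and OVCAR5 alone 3442.

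Replicate numbers are shared by the groups, but same-numbered arrays deviated together weakly in SKOV3 (r = 0.213) and not in OVCAR5 (r = -0.0135), so they were not taken as pairs. With line and replicate number as a replicate block, 2317 probes were called over both lines, 1384 genes also in each line, and 3824 probes differed between lines, and 18 of the 118 named values lost their call. With that block 22 list counts moved by over 1.5 times. The lower counts were 18 for S phase in place of 28, 2 for mitosis in place of 33, 12 for ribosome biogenesis in place of 22, and 0 for ribosomal proteins in place of 6 and the respiratory chain in place of 2. The higher counts were 10 for the integrated stress response in place of 16, 7 for cytokines and 4 for AP-1 in place of 12 each, 5 for lysosomal genes in place of 10, 4 for epithelial adhesion in place of 8, 2 for the unfolded protein response in place of 5, 0 for fatty acid synthesis in place of 4, 2 for carcinoma markers and for genes beside ERBB2 in place of 4 each, and 1 for squalene enzymes and for p53 targets in place of 3 each; the other such counts were of 1 or 2 genes.

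The average of the line contrasts gave more calls for hypoxia genes (11 higher) and interferon genes (11 higher, in place of 6 each), p53 targets and squalene enzymes (6 higher, in place of 3 each), mevalonate enzymes (5 higher in place of 3), LXR targets (4 lower in place of 2) and respiratory chain and proteasome genes (7 lower each, in place of 2 and 0). Detection on all 8 arrays, which tests fewer genes, left 3 Krueppel-like factors, 7 cytokine genes, 4 epithelial genes and 2 carcinoma markers higher and 0 interferon genes lower, and with no filter on dim probes 16 mitosis and 2 ribosomal protein genes were lower and 2 genes beside ERBB2 higher. Interferon genes had 1 lower, in place of 3, without background correction, with median scaling or with no filter.

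Of those 118 values, 18 changed call with some 1 array left out. Over OVCAR5 alone 3 reversed in sign against the value over both lines, none of them called: ABCA1 (0.26), TXNIP (-0.23) and MVD (-0.12). Median scaling shifted the median of all probes to 0.047 and took the call from CDC25B and KRT18. With undetected groups at their bound the list medians moved by less than 0.2. Signal over background limits dim genes, since those undetected in a group have a bound only.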
